A study of Homo sapiens with 6 samples.

Results

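The 48 genes described here encode the machinery that copies DNA in S phase and its regulators. They cover origin licensing factors, the replicative helicase, the replicative polymerases, and the sliding clamp and its loader. Also included are the enzymes that supply deoxynucleotides, regulators of S phase and the chromatin assembly factor. The genes were chosen by symbol, and all 48 were found among the 62700 Ensembl gene IDs of the deposited count table. Reads were counted per gene in HEK293T cells, a transformed line of embryonic human kidney origin in which SV40 large T antigen is made. In the 3 editor libraries, cells had received by Lipofectamine 2000 a plasmid for the adenine base editor SpRY-ABE8e with guide RNAs at the splice acceptor and splice donor of APP exon 17. In the 3 GFP libraries, cells had received a GFP plasmid with the same reagent. All 6 cultures were therefore transfected, and untransfected cells, the editor without its guides and the share of cells that took up plasmid were not analysed here. All results come from polyA RNA of 1 cell line.

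Replication starts from origins bound by the origin recognition complex (ORC). In G1 phase ORC, CDC6 and CDT1 load the ring-shaped MCM helicase onto DNA, and geminin (GMNN) blocks reloading by binding CDT1. At the start of S phase CDC45 and the GINS complex join the ring and turn it into an active helicase, and the polymerases follow behind it. Many of these genes are transcribed in late G1 phase by E2F factors, which the retinoblastoma protein restrains. Large T antigen binds that protein and frees E2F factors from it.

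The libraries held between 110519197 and 152625595 counts. Editor libraries 2 and 3 were nearly the same in these genes, and over the 48 genes their counts gave a chi-square of 3.60 per degree of freedom. That value was 149.42 and 147.72 for editor library 1 against them, and 37.64 to 163.99 between GFP libraries. Between groups it ran from 44.7, for editor library 1 against GFP library 3, to 201.44, for editor library 1 against GFP library 1. In these genes editor library 1 was therefore closer to GFP library 3 than to either other editor library. The same held over all genes, at 39.42 against GFP library 3 and 104.78 and 110.9 against editor libraries 2 and 3. Over all genes, editor libraries 2 and 3 gave 3.16. GFP library 1 also stood apart from GFP libraries 2 and 3, at 148.35 and 163.99 in the 48 genes. Over all genes those 2 values were 174.58 and 125.76, against 31.6 between GFP libraries 2 and 3. The titles call all 6 libraries biological replicates, and no source used here says whether they came from separate cultures. Editor libraries 2 and 3 were kept as 2 samples, so the p-values, the SEs and the intervals rest on a spread that may be technical. The calls, the number of members below 0, the members' median and each member's log2 fold change were also computed with these libraries summed. The counts of genes without overlap, the summed CPM and the medians of the roles were not. APP, the gene the guides target, stood at 412 to 508 CPM (counts scaled to a common library total) in the editor libraries and 465 to 530 CPM in the GFP libraries. The line's label as epithelial kidney was met in part: KRT8, KRT18, CDH1 and PAX2 were counted in every library, whereas KRT19 had at most 1 read. EPCAM was low, at 1.085 to 2.42 CPM, and LHX1 had only 8 to 25 reads per library. The neurofilament genes NEFL and NEFM, known to be expressed in HEK293 cells, were counted in every library, at 145 to 184 CPM and 222 to 283 CPM. INA, another neural-type gene known in these cells, was lower, at 7.70 to 14.95 CPM. A list of 6 fibroblast markers summed to 42.5 to 45.2 CPM in the editor libraries and 36.0 to 37.9 CPM in the GFP libraries, with COL1A2 at 2 reads or fewer. The immune markers summed to 2.03 to 3.48 CPM against 2.30 to 2.64 CPM, the endothelial markers to 0.141 to 0.215 CPM against 0.0462 to 0.116 CPM, and the erythroid markers to 0.188 to 0.216 CPM against 0.112 to 0.192 CPM. The part of these markers in the results was not tested.

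Levels per length were first compared in the GFP libraries, as CPM per kilobase of merged exon (written FPKM). PCNA, the sliding clamp that holds polymerases on DNA, had the highest level of the 48 at 159 ± 9.31 FPKM (SD, n = 3). Next came RRM1, the large subunit of ribonucleotide reductase, at 96.8 ± 3.87 FPKM, MCM7 at 86.3 ± 7.03 FPKM, MCM3 at 86.1 ± 0.523 FPKM and CDT1 at 84.9 ± 15.8 FPKM. RRM1, MCM7 and CDT1 could not be ordered within their spread, and neither could MCM7, MCM3 and CDT1. At the other end stood POLD4, the small accessory subunit of polymerase delta, at 0.313 ± 0.0476 FPKM, and POLA2, the regulatory subunit of polymerase alpha, at 1.44 ± 0.316 FPKM. Cyclin E genes, whose products drive entry into S phase, were also low, with CCNE1 at 3.21 ± 0.138 FPKM and CCNE2 at 3.98 ± 0.537 FPKM. Exons of another annotated gene on the same strand overlap 35.1% of the exon length of POLA2 and 21.3% of that of POLD4. For CCNE2 the overlap is 37.1%, chiefly with INTS8 on the opposite strand. The part of these overlaps in the low levels was not tested.

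Subunits of one complex did not always have like levels. The 5 clamp loader genes lay close together, from RFC4 at 30.96 FPKM to RFC2 at 41.5 FPKM. The 6 genes of the MCM ring spread more widely: MCM4 (58.0 FPKM), MCM2 (52.5 FPKM) and MCM6 (51.2 FPKM) lay below MCM7 and MCM3, and MCM5 stood far below at 12.5 ± 1.16 FPKM. Of the GINS genes, GINS2 (21.6 FPKM) and GINS1 (19.1 FPKM) exceeded GINS3 (8.67 FPKM) and GINS4 (4.61 FPKM). Within polymerase delta the range ran from POLD2 at 24.7 FPKM through POLD1, the catalytic subunit, at 10.1 FPKM and POLD3 at 8.63 FPKM down to POLD4. The choice of length moved some of these levels: per longest transcript, RFC4 stood at 64.1 FPKM and led the clamp loader, and POLE, the leading-strand polymerase, stood at 16.2 FPKM in place of 7.83 FPKM. MCM5 was the lowest of the MCM ring under both lengths, and per longest transcript the means of MCM7 and MCM3 were 122.7 and 97.96 FPKM.

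**Figure D1:**
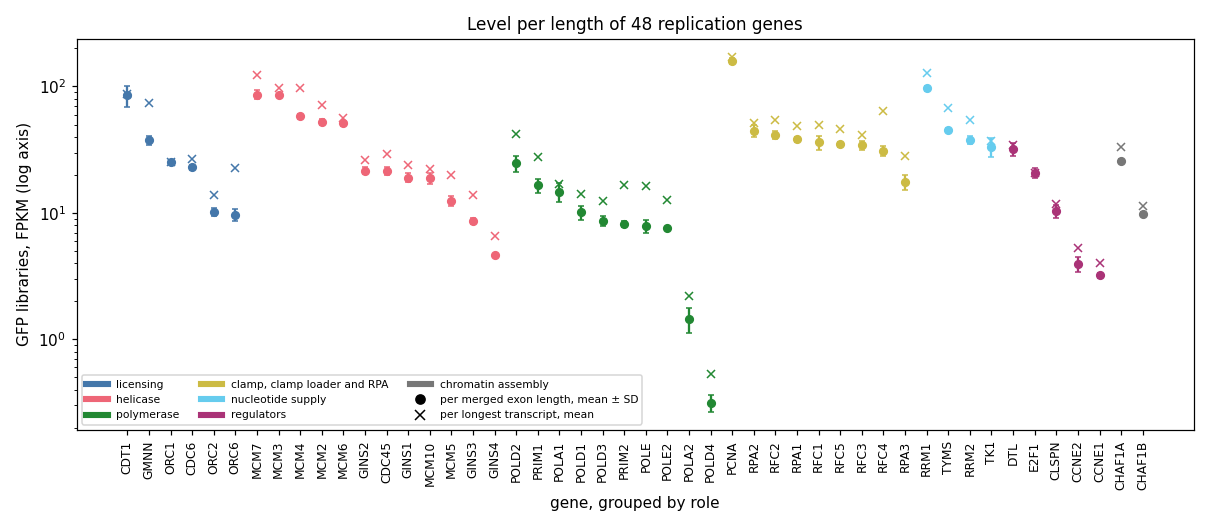
Level of each of the 48 genes in the GFP libraries in FPKM on a log axis, grouped by role; circles and bars are the mean and SD of 3 libraries per merged exon length, and crosses are the mean per longest transcript. PCNA was highest at 159 FPKM and POLD4 lowest at 0.313 FPKM.

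Some of the promoters share a feature. The genes were chosen by symbol and not by promoter letters, but many of them are transcribed by E2F factors, as stated above. In the RefSeq promoter table (GRCh38.p14, 250 bases before to 50 after each transcript start), 41 of the 48 genes had an entry. An E2F site, searched as TTTCCCGC, TTTGGCGC, TTTCGCGC or TTTGCCGC on either strand, was present in 20 of these 41 genes (48.8%), against 855 of 15843 protein-coding genes (5.4%) and 4.0% of all 27305 genes in the table. The CCAAT box, searched as CCAAT, was found in 28 of the 41 (68.3%, against 42.1% of protein-coding genes). The CHR element of late cell cycle genes, searched as TTTGAA, was found in 1 of the 41, RRM1 (2.4%, against 15.8%). As spelled, a CCAAT box can share at most 1 base with an E2F site, and a CHR element cannot overlap it. A match describes letters only. Sites from genes of each main role are shown so that their likeness can be read, 5′ to 3′ on the strand of the gene, with every whole E2F match in the stretch in capitals:
CDT1, chr16:88803743-88803772, plus strand: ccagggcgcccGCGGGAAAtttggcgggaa
MCM7, chr7:100101566-100101595, minus strand: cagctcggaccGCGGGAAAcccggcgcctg
MCM3, chr6:52284898-52284927, minus strand: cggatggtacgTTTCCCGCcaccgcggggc
MCM6, chr2:135876577-135876606, minus strand: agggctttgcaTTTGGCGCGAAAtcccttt
POLA1, chrX:24693770-24693799, plus strand: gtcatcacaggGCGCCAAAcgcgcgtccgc
RFC3, chr13:33818083-33818112, plus strand: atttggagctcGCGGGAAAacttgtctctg
PCNA, chr20:5126663-5126692, minus strand: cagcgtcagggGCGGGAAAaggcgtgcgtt
TYMS, chr18:657603-657632, plus strand: gcgggacggccGCGGGAAAaggcgcgcgga
E2F1, chr20:33686400-33686429, minus strand: gtggctctttcGCGGCAAAaaggatttggc
The capitals in CDT1, MCM7, RFC3, PCNA and TYMS are the same 8 letters, GCGGGAAA, the reverse complement of TTTCCCGC, which MCM3 carries on the gene's own strand. MCM6 holds overlapping matches on both strands, and its promoter had 4 matches in all. MCM3, MCM7 and E2F1, the gene of a factor that itself binds such sites, each held 2 matches, and the one farther from the start is shown. The sites shown lay from 33 to 26 bases before the start in E2F1, from 35 to 28 in CDT1 and from 59 to 52 in PCNA.

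The comparison of editor with GFP libraries asked whether the base editor altered the cells' expression programme. None of the 48 genes was called higher or lower. By edgeR's quasi-likelihood test with Benjamini-Hochberg adjustment over all genes, 0 members passed an adjusted p of 0.05, where the background over the 20511 genes tested was 0.0244% called higher and 0% called lower. The smallest adjusted p of a member was 0.5237. DESeq2 also called 0 members, against 0.229% of all genes higher and 0.156% lower, as did limma-voom, against 0.0146% higher and 0% lower. With no filter on low counts 0 members were called, against 0.401% higher and 0.29% lower. At an unadjusted p under 0.05, 8 members were lower (16.7%) and 0 higher, against 2.57% lower and 6.1% higher over all genes. Without editor library 1, 0 members were called, against 0.748% of all genes higher and 0.254% lower, and 12 were lower and 1 higher at an unadjusted p under 0.05, against 8.3% and 14.2%. The count of 8 lower members differed between alternatives, and so did the share over all genes. That count was 14 without GFP library 1 (6.13% of all genes) and 3 without GFP library 3 (1.85%). It was 1 without editor library 2, without editor library 3 or with these libraries summed (0.963% to 1.04%). With RLE scaling it was 12 (3.17%), with DESeq2 10 (3.05%), with library totals 4 (1.54%) and with no filter 8 (3.1%). The estimates were small: every one of the 48 intervals (95%) lay within a log2 fold change of 1 in either direction. Of these, 39 lay within 0.5 (81.2%, against 42.5% of all genes tested). The intervals count editor libraries 2 and 3 as 2 samples, and intervals with these libraries summed are not given. All 48 passed the filter on low counts, and reads per library ranged from 646 to 55886 in all but POLD4. A p that misses the threshold does not show that the levels were the same.

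The direction of the estimates was mostly downward. The log2 fold change, editor minus GFP, was below 0 in 40 of the 48 genes (83.3%), with a median of -0.13, against 45.7% of all genes tested and a median of 0.02. Scaled by library totals, 72.9% of the members and 35.3% of all genes lay below 0, and with no filter on low counts 95.8% and 52.9%. Among the 9704 genes in the same range of average expression (POLD4 left out when setting it), 57.3% lay below 0, with a median of -0.03. In 15 of the 48 (31.2%) every editor library lay below every GFP library, against 6.12% of all genes, and in 0 of the 48 was every editor library above, against 8.63%. Added together, the 48 genes gave 5213, 5146 and 5152 CPM in editor libraries 1 to 3 and 5767, 5620 and 5737 CPM in GFP libraries 1 to 3. The groups did not overlap in this sum, and the editor mean was 9.42% lower. As a share of all counted reads, without that scaling, the members took 0.561% in the GFP and 0.527% in the editor libraries on average, which was 6.09% lower. By library the shares were 0.581%, 0.547% and 0.554% in GFP libraries 1 to 3. In editor library 1 the share was 0.503%, while editor libraries 2 and 3, both at 0.538%, lay close to GFP library 2. Because the list was drawn up with results of these data known, no test is given for the sum or the counts. In bulk RNA, fewer cells in S phase and less RNA per cell cannot be told apart.

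**Figure D2:**
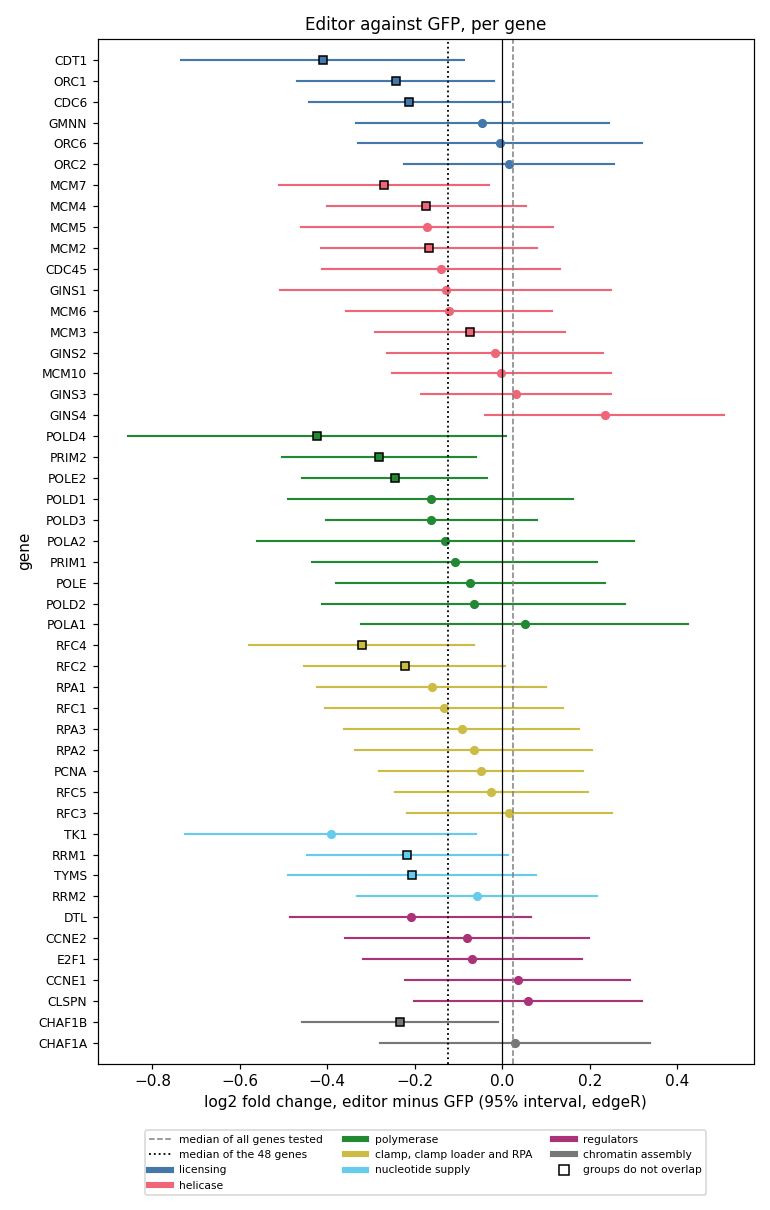
Log2 fold change, editor minus GFP, of each of the 48 genes with its 95% interval from edgeR, grouped by role; squares mark the 15 genes whose groups do not overlap, the dotted line is the median of the 48 (-0.13) and the dashed line that of all genes tested (0.02). No gene passed the adjusted threshold, and 40 points lie left of 0.

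Of the licensing genes, 5 of 6 lay below 0, with a median log2 fold change of -0.13. CDT1 (chromosome 16, 88803213 to 88809258, plus strand), which with CDC6 brings the MCM ring to origins, had 343, 264 and 243 CPM in GFP libraries 1 to 3 and 199, 221 and 218 CPM in editor libraries 1 to 3. The groups did not overlap, and GFP library 1 stood apart at the top. The log2 fold change was -0.41 (SE 0.14, edgeR adjusted p = 0.5237), and -0.27 without GFP library 1. ORC1, the largest ORC subunit, stood at 79.2, 78.5 and 82.3 CPM in the GFP and 72.6, 66.3 and 63.8 CPM in the editor libraries. The ORC1 groups did not overlap, and the log2 fold change was -0.24 (SE 0.10, edgeR adjusted p = 0.5575). CDC6 stood at 123 to 134 CPM against 106 to 117 CPM, again without overlap. The remaining members showed no such separation: GMNN, the inhibitor of CDT1, had a log2 fold change of -0.05, ORC6 of -0.0051 and ORC2 of 0.02. Those 3 values changed sign under some alternatives. ORC2 ranged over 54.1, 61.8 and 62.4 CPM in the GFP and 64.0, 56.7 and 59.7 CPM in the editor libraries, so its groups overlapped.

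Of the helicase genes, 10 of 12 lay below 0, with a median of -0.13. MCM7 (chromosome 7, 100092728 to 100101940, minus strand), a subunit of the ring, had 414, 363 and 359 CPM in the GFP and 324, 310 and 308 CPM in the editor libraries. Its groups did not overlap, and the log2 fold change of -0.27 (SE 0.11, edgeR adjusted p = 0.5426) was the lowest of the role. MCM4, the ring subunit with the most counts, had 386, 413 and 414 CPM in the GFP and 378, 347 and 351 CPM in the editor libraries. The MCM4 groups were separate by a narrow margin, from 378 to 386 CPM, with a log2 fold change of -0.17 (SE 0.10, edgeR adjusted p = 0.6517). MCM2 (-0.17) and MCM3 (-0.07) also had separate groups, whereas MCM5 (-0.17) and MCM6 (-0.12) did not. All 6 ring subunits had estimates below 0 in all 15 alternatives. Without editor library 1, MCM5 stood at -0.09 and MCM6 at -0.19. CDC45 stood at -0.14, or at -0.06 without that library, and MCM10, which helps to activate the helicase, at -0.0022 with overlapping groups.

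The 4 GINS genes did not share a direction. GINS4 had 25.1, 25.1 and 25.6 CPM in the GFP and 25.03, 31.5 and 32.5 CPM in the editor libraries. Editor library 1 lay at the GFP level, and the other two lay above it. The log2 fold change of GINS4, 0.23 (SE 0.12, edgeR adjusted p = 0.6204), was the highest of all 48, and GINS4 was the 1 gene above 0 in every alternative. GINS1 showed the reverse order of libraries, with 90.8 CPM in editor library 1 against 59.5 and 62.5 CPM in editor libraries 2 and 3, and 73.4 to 85.0 CPM in the GFP libraries. The log2 fold change of GINS1 was -0.13, and it ran from -0.37 without editor library 1 to -0.02 without editor library 2. GINS2 stood at -0.02 and GINS3 at 0.03, and both changed sign on leaving out single libraries.

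**Figure D3:**
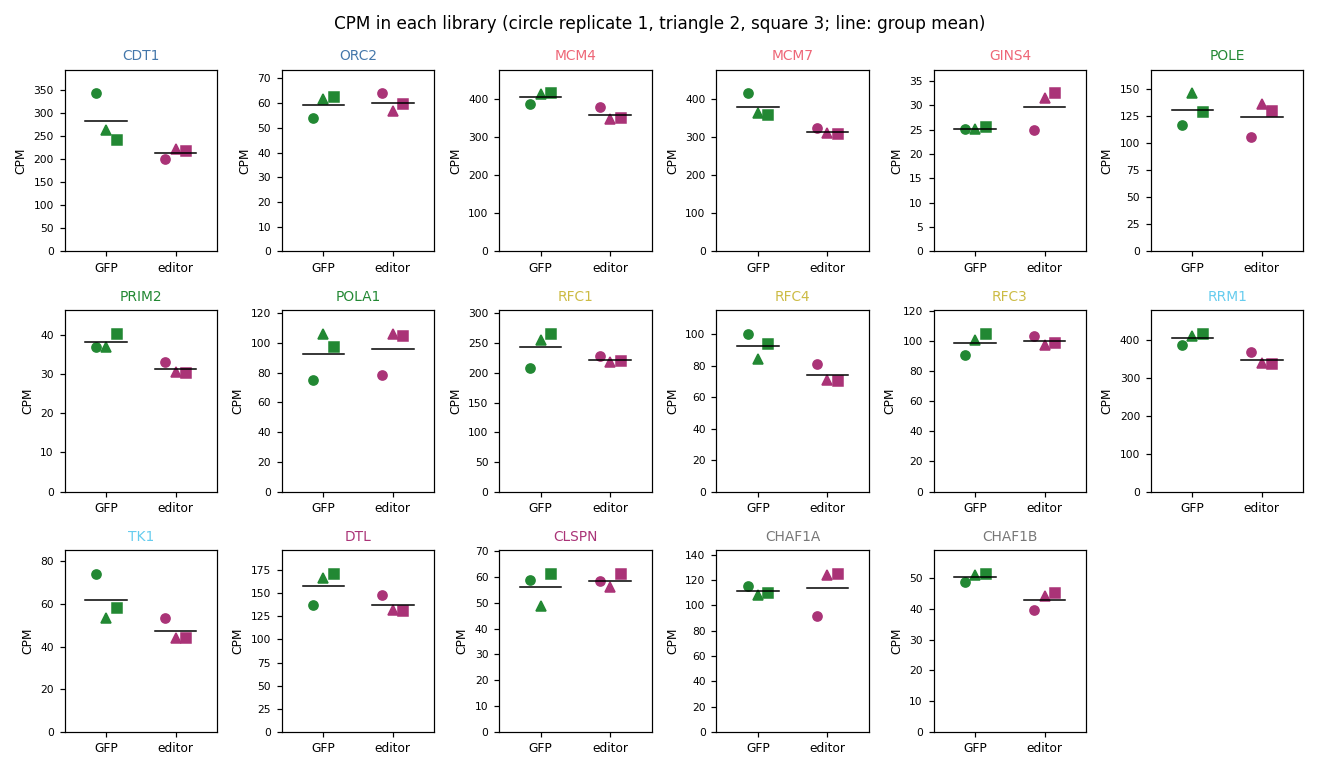
CPM of the 17 members named by rule in each library, with circles, triangles and squares for replicates 1, 2 and 3 and a line at each group mean; every axis starts at 0, and title colours mark the role. In CDT1, MCM4, MCM7, PRIM2, RFC4, RRM1 and CHAF1B the editor points lie below all GFP points, and in POLE, POLA1 and CHAF1A editor library 1 lies apart from the other two editor libraries.

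Of the polymerase and primase genes, 9 of 10 lay below 0, with a median of -0.15. PRIM2 (chromosome 6, 57314805 to 57646849, plus strand), the large subunit of the primase that makes RNA primers, had 37.0, 36.9 and 40.4 CPM in the GFP and 33.1, 30.5 and 30.4 CPM in the editor libraries. Its groups did not overlap, and the log2 fold change was -0.28 (SE 0.10, edgeR adjusted p = 0.5237). POLE2, a non-catalytic subunit of polymerase epsilon, was the most even of the role, with 22.7, 22.1 and 22.7 CPM against 18.6, 19.2 and 19.1 CPM. The POLE2 log2 fold change of -0.25 (SE 0.09, edgeR adjusted p = 0.5292) stayed between -0.26 and -0.25 whichever library was left out. POLD4 had the lowest estimate of all 48, -0.42 (SE 0.19, edgeR adjusted p = 0.5777), on 101 to 143 reads in the GFP and 74 to 105 reads in the editor libraries. Its groups did not overlap in CPM, and its interval, from -0.86 to 0.01, was the widest towards low values.

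The polymerase genes with the most counts had estimates nearer to 0. POLE, the most counted polymerase gene, had 116, 146 and 128 CPM in the GFP and 106, 136 and 129 CPM in the editor libraries. Its groups overlapped, with a log2 fold change of -0.07 (SE 0.14, edgeR adjusted p = 0.9083). POLA1, the catalytic subunit of polymerase alpha, had 75.1, 106 and 97.0 CPM in the GFP and 78.3, 106 and 104 CPM in the editor libraries. GFP library 1 and editor library 1 were both low, and the log2 fold change was 0.05 (SE 0.16, edgeR adjusted p = 0.9475), the 1 estimate above 0 in the role, though it took either sign as libraries were left out. POLD1 (-0.16), POLD3 (-0.16), POLA2 (-0.13), PRIM1 (-0.11) and POLD2 (-0.07) had overlapping groups. Without editor library 1, POLD1 stood at -0.06 and PRIM1 at -0.01, while without GFP library 1 they stood at -0.08 and -0.22.

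Of the clamp, clamp loader and RPA genes, 8 of 9 lay below 0, with a median of -0.09. RFC4 (chromosome 3, 186789880 to 186807058, minus strand), a small subunit of the clamp loader, had 100.4, 84.3 and 93.7 CPM in the GFP and 81.3, 71.0 and 70.6 CPM in the editor libraries. The RFC4 groups did not overlap, and the log2 fold change was -0.32 (SE 0.11, edgeR adjusted p = 0.5279). RFC2 had separate groups too, at 87.6 to 99.8 CPM against 76.8 to 79.8 CPM. The other loader genes differed less: RFC1, the large subunit, had 208, 256 and 266 CPM in the GFP and 228, 218 and 220 CPM in the editor libraries, with overlap, RFC5 stood at -0.02 and RFC3 at 0.02. PCNA, the clamp they load, had 247, 220 and 235 CPM in the GFP and 236, 217 and 225 CPM in the editor libraries. The PCNA groups overlapped, with a log2 fold change of -0.05 (SE 0.10, edgeR adjusted p = 0.9162) and an interval of -0.28 to 0.18. The subunits of RPA, which coats single-stranded DNA, stood at -0.16 (RPA1), -0.07 (RPA2) and -0.09 (RPA3), all with overlap. RFC1, at -0.13, stood at -0.25 without GFP library 1, and RPA1 at -0.28 without editor library 1. PCNA, RFC5 and RPA2 lay between -0.15 and -0.0018 whichever library was left out.

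All 4 genes of nucleotide supply lay below 0, with a median of -0.21. RRM1 (chromosome 11, 4094707 to 4138876, plus strand) had 386, 410 and 417 CPM in the GFP and 368, 338 and 336 CPM in the editor libraries. Its groups did not overlap, and the log2 fold change was -0.22 (SE 0.10, edgeR adjusted p = 0.5904). RRM2, the small subunit of the same enzyme, overlapped between groups, at 187 to 214 CPM against 178 to 219 CPM (log2 fold change -0.06, or -0.18 without editor library 1). TK1 (chromosome 17, 78174075 to 78187233, minus strand), the thymidine kinase of the salvage pathway, had 74.2, 53.6 and 58.2 CPM in the GFP and 53.6, 44.2 and 43.9 CPM in the editor libraries. The lowest GFP and the highest editor library met at 53.6 CPM, and the log2 fold change of -0.39 (SE 0.15, edgeR adjusted p = 0.5292) was -0.26 without GFP library 1. TYMS, which makes thymidylate, had separate groups, at 109 to 115 CPM against 81.0 to 105 CPM, and a log2 fold change of -0.21, or -0.11 without editor library 1, but 46.6% of its exon length overlaps other genes, chiefly ENOSF1 on the opposite strand. No source used here gives the strand setting of the counts.

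The regulators had the median nearest to 0 of the roles, -0.07, and 3 of 5 lay below 0. DTL, the adaptor that marks CDT1 for destruction in S phase, had 137, 167 and 171 CPM in the GFP and 148, 132 and 131 CPM in the editor libraries. The groups of DTL overlapped through GFP library 1, and the log2 fold change was -0.21 (SE 0.12, edgeR adjusted p = 0.6517), or -0.32 without GFP library 1. CLSPN, which helps ATR to activate CHEK1 at stalled forks, had 58.7, 48.7 and 61.2 CPM in the GFP and 58.5, 56.1 and 61.1 CPM in the editor libraries, with overlap and a log2 fold change of 0.06 (SE 0.11, edgeR adjusted p = 0.9131). E2F1 (-0.07), CCNE1 (0.035) and CCNE2 (-0.08) overlapped as well. Over the libraries left out, E2F1 ran from -0.15 to -0.01 and CCNE2 from -0.20 to -0.02. Set against the promoter letters, the median log2 fold change was -0.10 over the 20 with a match and -0.14 over the 21 without, given with no test.

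The 2 chromatin assembly genes, subunits of the factor that places new histones behind the fork, parted from each other. CHAF1B (chromosome 21, 36385378 to 36419015, plus strand) had 48.9, 51.1 and 51.5 CPM in the GFP and 39.5, 44.1 and 45.2 CPM in the editor libraries. Its groups did not overlap, and the log2 fold change was -0.23 (SE 0.10, edgeR adjusted p = 0.5688). CHAF1A had 115, 108 and 110 CPM in the GFP and 91.5, 124 and 125 CPM in the editor libraries, so editor libraries lay on both sides of the GFP range, with a log2 fold change of 0.03 (SE 0.14, edgeR adjusted p = 0.9635).

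The editor libraries were not alike, and the medians of the roles differed by library. In log2 CPM, the median difference between editor libraries 2 and 3 was 0.02 in size over the 48 genes, and that between editor library 1 and their mean was 0.16. The polymerase genes had a median of -0.32 relative to the GFP mean in editor library 1 and of -0.0086 in editor libraries 2 and 3. The second median lies over genes on both sides: POLD4 (-0.39), PRIM2 (-0.32), POLE2 (-0.23) and POLD3 (-0.21) stood below the GFP mean in those libraries too, and POLA1 (0.19) above it. The chromatin assembly genes had medians of -0.32 and -0.0076, from CHAF1A (-0.28 and 0.16) and CHAF1B (-0.35 and -0.18). Over the 48 genes, editor library 1 lay below both other editor libraries in 20 and above both in 25. Editor libraries 2 and 3 differ so little that most genes must fall outside them, and the share over all genes was not computed. Editor library 1 lay below both other editor libraries in 7 of the 10 polymerase genes, among them POLA1, POLA2, POLD1, POLD2, POLE and PRIM1. The licensing genes showed the opposite order, with a median of -0.005 in editor library 1 and -0.21 in editor libraries 2 and 3, and editor library 1 lay above both others in 5 of 6. The clamp, clamp loader and RPA genes also lay lower in editor libraries 2 and 3 (-0.13) than in editor library 1 (-0.02). Of single genes, GINS1 (0.57) and ORC6 (0.41) stood highest in editor library 1 relative to the mean of the other two, and POLA2 (-0.45) and CHAF1A (-0.44) lowest. One library stands on one side of this contrast, so it has no test.

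**Figure D4:**
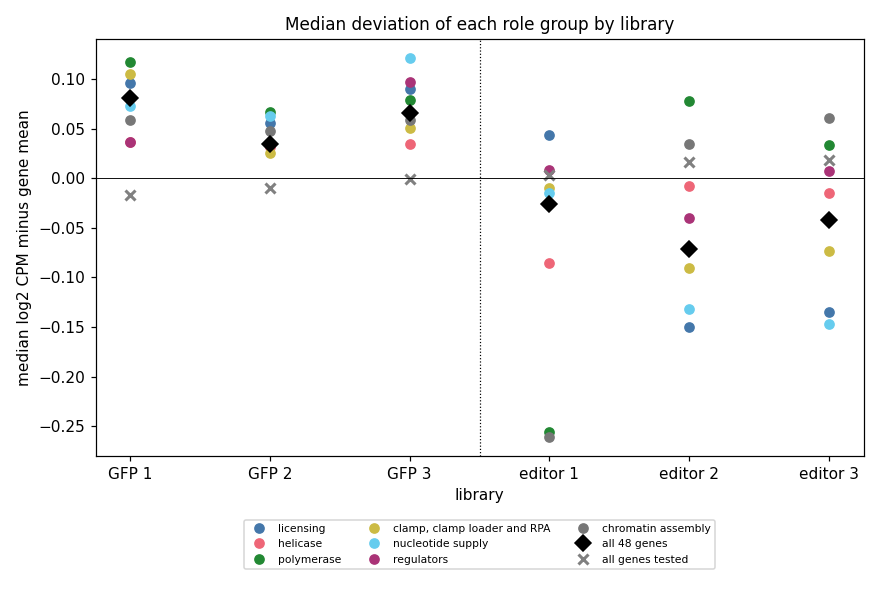
Median over each role group of log2 CPM minus the gene's own mean over 6 libraries, by library; coloured circles are roles, diamonds all 48 genes and crosses all genes tested. The 3 GFP libraries have diamonds above 0 (0.04 to 0.08) and the 3 editor libraries below 0 (-0.07 to -0.03), while the polymerase circle is at -0.26 in editor library 1 and at 0.08 and 0.03 in editor libraries 2 and 3.

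**Figure D5:**
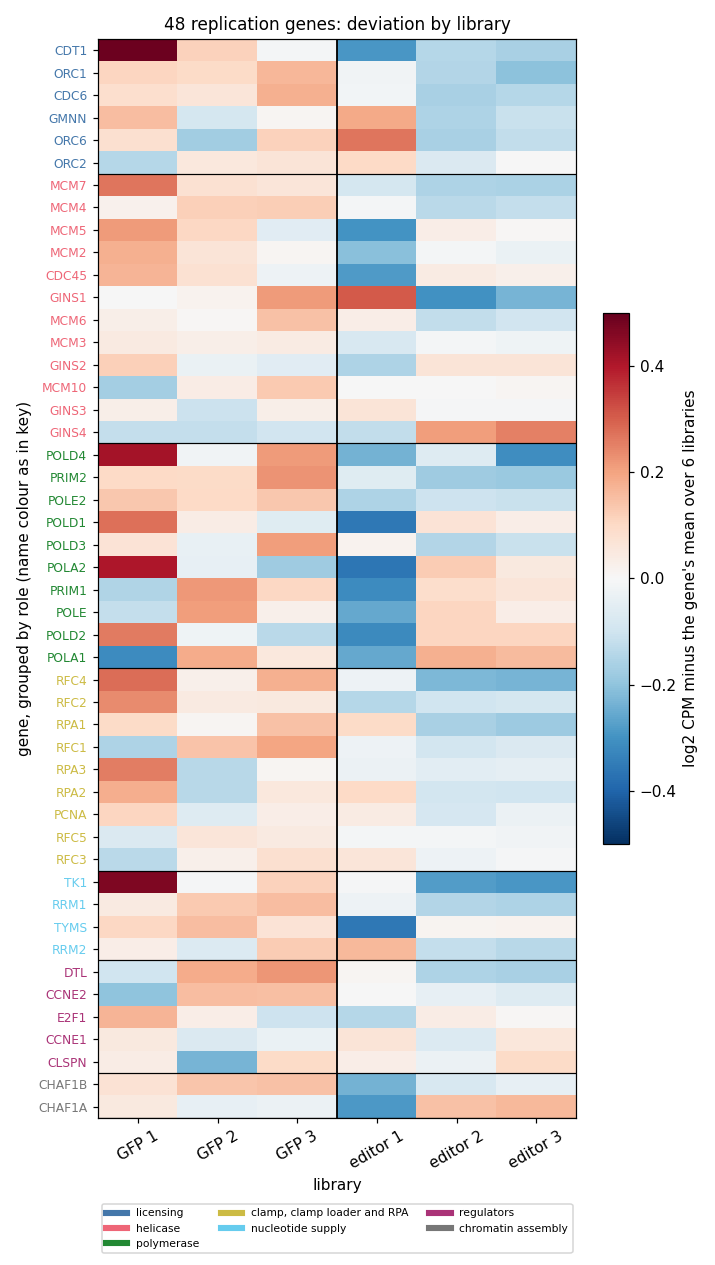
Log2 CPM of each of the 48 genes minus its mean over the 6 libraries, red above and blue below, with rows grouped by role and libraries in columns. In editor library 1, 33 genes lie below their own mean, among them 9 of 10 polymerase and 9 of 12 helicase genes, and in editor libraries 2 and 3 all 6 licensing genes and all 9 clamp, clamp loader and RPA genes do.

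The wider replication pathway was less one-sided. Of 84 further genes of origin firing, lagging-strand synthesis, nucleotide metabolism, chromatin replication, S-phase control and the replication checkpoint, 0 passed in either direction by edgeR, DESeq2 or limma-voom, and 2 were lower (2.38%) and 2 higher at an unadjusted p under 0.05, against 2.57% and 6.1% of all genes. In all, 48 of the 84 (57.1%) lay below 0, with a median log2 fold change of -0.03, near the 57.3% and -0.03 of genes in the members' range of expression. Groups did not overlap in 4 lower (4.76%) and 7 higher genes (8.33%), against 6.12% and 8.63% of all genes. The 14 further licensing and firing genes resembled the members in sign, with 12 below 0 and a median of -0.11. They did not in separation: groups did not overlap in ORC5, lower, and MCM8, higher (7.14% each). These shares were near the 6.12% and 8.63% of all genes. At an unadjusted p under 0.05 by edgeR, 1 was lower and 1 higher. ORC3 was at -0.28 (SE 0.12, edgeR adjusted p = 0.5751), while MCM8, an MCM relative used in recombination, was at 0.32 (SE 0.13, edgeR adjusted p = 0.5524). In chromatin replication 6 of 9 lay above 0. UHRF1, which guides DNA methylation to new strands, had 38.4, 38.9 and 40.2 CPM in the GFP and 45.6, 51.7 and 51.1 CPM in the editor libraries. The groups of UHRF1 did not overlap, and the log2 fold change was 0.34 (SE 0.10, edgeR adjusted p = 0.4912). CHEK1, the checkpoint kinase that slows S phase, had 139, 173 and 164 CPM in the GFP and 131, 129 and 130 CPM in the editor libraries. Its groups did not overlap either, with a log2 fold change of -0.29 (SE 0.11, edgeR adjusted p = 0.5473).

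The remaining pathway genes named by rule were likewise not called. NASP, a histone chaperone, stood at 0.13, ETAA1, an activator of ATR, at 0.19 and TOP1, the topoisomerase ahead of the fork, at 0.14. RNASEH2C, a subunit of the enzyme that removes ribonucleotides, stood at 0.32, SAMHD1, which degrades deoxynucleotides, at 0.34, and TYMP, at 0.58, on at most 0.289 CPM. CCND1, cyclin D1, stood at 0.23, and CDK2, the kinase partner of cyclin E, at -0.19. Groups were separate in ETAA1, TOP1, TYMP and CCND1 and overlapped in NASP, RNASEH2C, SAMHD1 and CDK2. The inhibitor CDKN1A, named after its value was seen, stood at 0.03 with an interval of -0.33 to 0.40.

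The authors' deposited table lists all 48 genes, 39 of them with a log2 fold change below 0 and 0 past an adjusted p of 0.05. Its smallest adjusted p among them is 0.570, for PRIM2, with a log2 fold change of -0.27. Some counts are less certain than others. Exons of other annotated genes overlap 37.1% of the exon length of CCNE2, 35.1% of POLA2, 23.6% of MCM2 and of GINS4, 21.6% of PRIM1, 21.3% of POLD4 and 20.2% of RRM2. Pseudogenes named after members took at most 0.325% of the reads of their parent, in RPA2.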

How the data were processed

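Per the labels' protocols, the polyA libraries were prepared with TruSeq reagents from RNeasy-purified RNA and read on a NovaSeq 6000. The submitters' processing notes name HISAT2, featureCounts and limma. Neither versions, genome build, annotation nor strand setting could be taken from the labels or file headers. The authors deposited raw counts per gene, with 1 column per library, matched by the sample descriptions, and a comparison table whose first 15273 rows were used.

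Counts were tested with edgeR 4.0.16 (R 4.3.3): TMM scaling, the default low-count filter, quasi-likelihood F-test, editor minus GFP, Benjamini-Hochberg adjustment over 20511 genes. The SE was the absolute log2 fold change over the square root of the F statistic. CPM are TMM-scaled (prior count 2 on the log2 scale). FPKM used GENCODE 29 exon lengths (GRCh38), matched by gene ID, as were coordinates. The libraries held 110519197 to 152625595 counts, so counting error is small for all members but POLD4. The alternatives comprised DESeq2 1.42.0, limma-voom 3.58.1, scaling by RLE or by library totals, dropping the filter or requiring 50 reads in 3 libraries, leaving out each library, a stricter adjusted p (0.01), blocking on the replicate number, summing editor libraries 2 and 3, and longest transcripts. The fits were tested on simulated data.

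The members, lists and alternatives were chosen with earlier results of these data known. Values in every library are given, per role, for the member with most counts in the GFP libraries and those with the smallest p above and below 0, and 2 genes with the smallest p are named per further list. ORC1, CDC6, POLE2, POLD4, PCNA, GINS1 and values of other members outside this rule were chosen after their values were seen.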

Additional observations from a re-analysis of the deposited data

How the results depend on the processing

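No member was called under any of the 15 alternatives, and 31 of the 48 kept their sign in all of them, 30 of these below 0. The number of members below 0 was 37 to 41 over the libraries left out. The median log2 fold change of the members was -0.0726 with library totals, -0.177 with no filter and -0.149 to -0.118 over the libraries left out. The median level of the members, taken in each GFP library and averaged over the 3, was 28.1 FPKM per longest transcript, against 22.1 FPKM per merged exon length. Over all genes, 5 higher and 0 lower calls became 47 and 32 with DESeq2, 178 and 129 when the filter was dropped, 3 higher with limma-voom, 1 higher with the replicate block and 1 higher at an adjusted p of 0.01. Over the libraries left out there were 1 to 159 calls higher and 0 to 54 lower, the most without editor library 1. The deviations of libraries with the same number correlated at -0.0485, 0.173 and -0.237, so the numbers were not taken as pairs, and with the replicate block the median of the members was -0.121. The 84 further pathway genes had 0 calls in each alternative.

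The members that changed sign lay near 0, none beyond 0.13 in size with all libraries, and the cause was not tested. With RLE scaling and with DESeq2, ORC2 was -0.0052 and RFC3 -0.0059. With library totals, PCNA was 0.0001, RFC5 0.0289, GINS2 0.0379, ORC6 0.0394 and MCM10 0.0527. With no filter, POLA1 was -0.006, CCNE1 -0.0176, GINS3 -0.0211, CHAF1A -0.0261, ORC2 -0.0373 and RFC3 -0.0384. With at least 50 reads, ORC6 was 0.0054 and MCM10 0.011. MCM10 was 0.0031 with limma-voom and with the replicate block. With editor libraries 2 and 3 summed, POLA1 was -0.0197, CHAF1A -0.0433, GMNN 0.009 and ORC6 0.0643. Over the libraries left out, the values ran from -0.0625 to 0.0564 for ORC2, -0.177 to 0.0732 for ORC6, -0.182 to 0.0181 for GMNN, -0.0977 to 0.0511 for MCM10, -0.0658 to 0.0312 for GINS2, -0.0148 to 0.044 for GINS3, -0.0963 to 0.158 for POLA1, -0.261 to 0.0457 for POLA2, -0.163 to 0.0413 for POLD2, -0.164 to 0.0146 for POLE, -0.0594 to 0.0468 for RFC3, -0.181 to 0.0058 for RPA3, -0.0087 to 0.0769 for CCNE1, -0.0364 to 0.110 for CLSPN and -0.0469 to 0.141 for CHAF1A.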
